A study of Mus musculus with 4 samples.

Results

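The strong SOX17FNV-only regions are stretches of accessible chromatin that were found in mouse embryonic stem cells kept by an engineered SOX17 and in neither library of cells kept by SOX2. They were chosen by their peak values: the region had to hold a peak with a -log10 q of at least 4 in both SOX17FNV libraries and no peak at all in either SOX2 library. There were 797 of them among 154888 merged regions of the chromosomes used (0.515%), which are chromosomes 1 to 19 without chromosome 14 and without chromosome 6 from 120 to 150 Mb. The reverse rule gave 1246 strong SOX2-only regions (0.804%). The order of the counts turned without SOX17FNV replicate 2 (4960 and 1674) and with SOX2 replicate 1 left out (3298 and 2156). It held without SOX17FNV replicate 1 (1901 and 3164) and without SOX2 replicate 2 (1372 and 7177). Each of these asks for 1 strong peak in the group that lost a library and 2 in the other, so the 2 counts are not measured alike. At any strength, 4344 regions were SOX17FNV-only (2.80%), of which 3547 were weaker ones, and 6335 were SOX2-only (4.09%). All cells were of the line 2TS22C and were treated with DOX, and per the labels endogenous SOX2 was silenced in both groups. A lentivirus supplied SOX17FNV in the first group and SOX2 in the second, the medium was 2i serum/LIF, and ATAC-seq was made from 900000 cells per library. Each group had 2 libraries of this 1 line, called biological replicates in the titles. Whether they came from separate transductions or clones, and which promoter the lentivirus carried, is not stated in the labels, so the spread between replicates may be technical.

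SOX proteins bend DNA through a shared HMG box that binds in the minor groove at a short CATTGT-like core. In embryonic stem cells SOX2 works as a partner of OCT4 on a composite of a SOX and an octamer site, and the pair binds enhancers of pluripotency genes. SOX17 is a related factor of endoderm and of endothelium, and SOX17FNV is an engineered form of it. ATAC-seq reads the result as open DNA, where a transposase can insert sequencing adapters; promoters are usually open in many cell types, whereas distal enhancers differ more between cell states.

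Of the 776 regions on the chromosomes of the RefSeq promoter table, 14 overlapped a promoter window, as did 17 of 1190 strong SOX2-only regions. A window runs from 250 bases before to 50 bases after a gene start in the RefSeq table of GRCm38.p6 (the coordinates of mm10). The 14 strong SOX17FNV-only regions touched 16 windows of 15 genes, and 12 of them covered the start itself. The promoter table does not list every start, and it also holds genes that are not protein-coding. Most of the 16 windows were of such genes, Gm46604 and Gm28857 among them. The following 5 sequences are the parts of promoter windows that lay under a region and before the start, written 5′ to 3′ on the gene's strand. Cdkn1a (chr17:29090846-29090978, plus strand), which encodes the cell cycle inhibitor p21 and is a textbook target of p53, is shown because its sequence holds a p53-type pair of cores. Ebi3 (chr17:55952373-55952514, plus strand), a cytokine subunit gene, is shown as the strongest region at the start of a protein-coding gene. Gm46604 (chr17:12031401-12031650, minus strand), Gm28857 (chr1:130741292-130741541, minus strand) and 4930558C23Rik (chr3:95402833-95402896, minus strand) are shown because they hold the SOX letters under the region. Capitals mark every match to the letters searched, which are spelled out after the sequences.
Cdkn1a: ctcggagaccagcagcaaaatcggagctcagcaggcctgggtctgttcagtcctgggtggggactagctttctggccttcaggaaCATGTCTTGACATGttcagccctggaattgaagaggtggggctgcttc
Ebi3: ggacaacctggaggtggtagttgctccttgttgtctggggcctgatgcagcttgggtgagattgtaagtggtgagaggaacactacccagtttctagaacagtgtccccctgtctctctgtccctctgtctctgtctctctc
Gm46604: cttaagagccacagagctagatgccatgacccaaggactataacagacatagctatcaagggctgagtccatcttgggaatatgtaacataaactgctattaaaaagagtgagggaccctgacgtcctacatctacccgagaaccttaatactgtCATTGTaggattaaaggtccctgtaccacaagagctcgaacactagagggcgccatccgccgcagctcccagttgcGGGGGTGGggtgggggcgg
Gm28857: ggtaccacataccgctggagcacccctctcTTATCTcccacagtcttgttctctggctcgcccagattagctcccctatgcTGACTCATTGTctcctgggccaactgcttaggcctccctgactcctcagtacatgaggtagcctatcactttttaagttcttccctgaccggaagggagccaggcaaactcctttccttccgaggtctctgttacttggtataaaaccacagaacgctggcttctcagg
4930558C23Rik: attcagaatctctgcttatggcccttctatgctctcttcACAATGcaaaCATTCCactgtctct

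The windows were searched on both strands for short letters known for each family of factors. These were CATTGT for SOX factors, ATGCAAAT for the octamer of OCT factors, and the composite of both in that order, with and without 1 base between them. For AP-1 they were TGA and TCA around 1 base of any kind. The letters for the other families were AGATAA for the erythroid and endoderm factors of the GATA family, TCAAGGTCA for ESRRB, GGGNGTGG for KLF factors, a core of CTCF, and GGAATG for TEAD factors. The SOX letters stood in 7 of the 16 whole windows (43.8%, exact binomial 95% interval 19.8 to 70.1) against 3690 of all 30038 windows of this length (12.3%). The share was 10 of 68 (14.7%, 7.28 to 25.4) in windows under weaker SOX17FNV-only regions, 3 of 19 (15.8%) under strong SOX2-only regions and 6.84% in windows under regions called in all libraries. By region, 7 of 14 had a window with the letters, but in only 3 of 14 did they lie under the region and before the start. Most of the windows with the SOX letters were of genes not listed as protein-coding. TEAD letters stood in 6 of 16 windows (37.5%) against 14.5% of all windows and 6 of 19 (31.6%) under strong SOX2-only regions, and AP-1 and GATA letters in 3 of 16 each (18.8%) against 7.86% and 11.2%. Under strong SOX2-only regions the AP-1 letters stood in 1 of 19 windows (5.26%) and the GATA letters in 4 of 19 (21.1%). KLF letters stood in 2 of 16 (12.5%) against 17.8% of all windows. The octamer, both composites, ESRRB and CTCF letters stood in 0 of 16, which allows a share of up to 20.6%; over all windows the octamer share was 1.75% and the composites were found in 0. In Gm28857 the AP-1 match TGACTCA and the SOX match share 2 letters. The Cdkn1a letters, a pair of CATG cores with 6 bases between them, were chosen after the sequence was seen and stood in 0.709% of all windows. Some windows share sequence, since the 2 windows of Gm32476 overlap that of Gm46425 under 1 region. A match describes letters in a window and is not evidence of binding, and these 14 regions say nothing of the sequence of the other regions, for which no genome was used here.

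The regions stood near the middle of the lists that called them, though the rule keeps only peaks above its threshold. Their -log10 q had a median of 6.70 in SOX17FNV replicate 1 (up to 26.6) and 5.55 in replicate 2 (up to 17.2), and their median percentile among the peaks of those lists was 58.4 and 57.0. The lowest percentile of a region was 37.2 and 42.5, so these medians lie in the lower part of the range the rule admits. The summit pileup, the number of fragments stacked over the highest point, had a median of 23 (range 16 to 55) in replicate 1 and 19 (15 to 46) in replicate 2. Divided by the median of regions called in all libraries (33 and 24), this was a relative pileup of 0.697 and 0.792, so the typical region stood below the typical shared region in both libraries. A SOX2 library has no value at these places, because a peak list holds nothing below its threshold; the weakest peaks in the SOX2 lists had pileups of 12 and 13, or relative pileups of 0.343 and 0.464. All 797 regions lay above both of these relative values in both SOX17FNV libraries. The threshold of the rule fixed this, since their lowest relative pileups were 0.485 and 0.625. The weakest peaks are those of a whole list, and a place of higher local background needs a higher pileup to be called. Whether an equal SOX2 signal would have been listed at these places is therefore not known. In 697 of 797 the summits of the SOX17FNV replicates lay within 100 bp of each other, with a median gap of 29 bp. These values follow from the rule and carry no test.

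**Figure D1:**
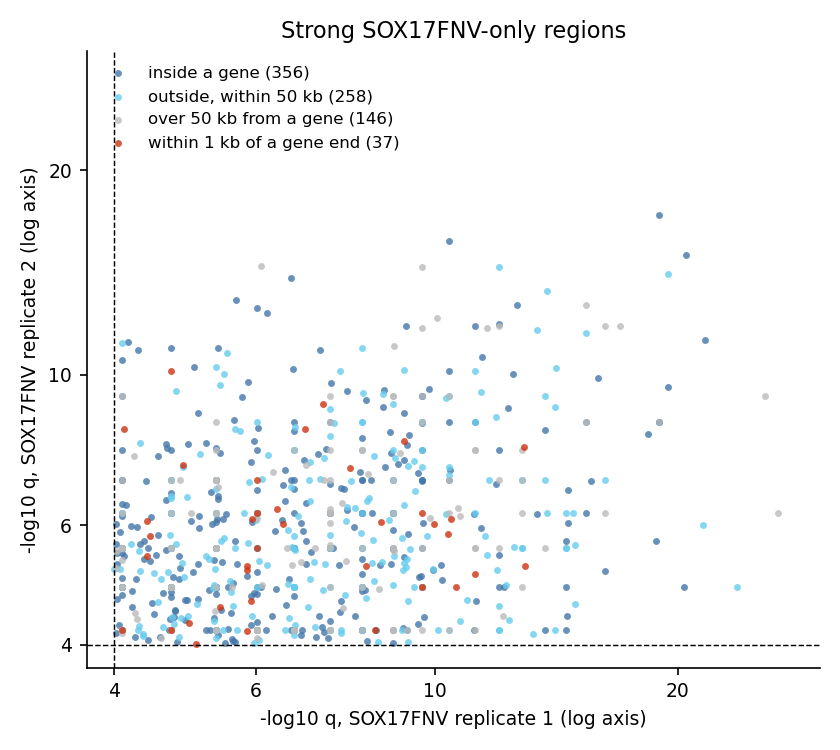
Strength of the 797 strong SOX17FNV-only regions, with 1 point per region coloured by its position relative to genes, and the -log10 q of SOX17FNV replicates 1 and 2 on log axes. The dashed lines mark the threshold of 4, and 380 of the points have a lower value between 4 and 5.

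The threshold fell in a dense part of the distribution. Of the 797 regions, 380 had a lower -log10 q between 4 and 5, 72 reached 8 and 23 reached 10. The 3 regions just inside it were in Lgr5, a receptor gene for R-spondins (4.02), at the far end of Snx33, a sorting nexin gene (4.01), and near Fam209 (4.005). Just outside it were regions in Adck1 (3.998), Zbtb7c (3.99) and Mroh4 (3.99). The membership also rests on both libraries of each group: the same rule gave 1901 regions with SOX17FNV replicate 1 left out, 4960 with SOX17FNV replicate 2 left out, 3298 with SOX2 replicate 1 left out and 1372 with SOX2 replicate 2 left out. Each of these drops a condition, so a higher count follows from the rule.

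Fewer regions lacked a SOX2 counterpart the stronger they were. Among the 42852 regions with a -log10 q of at least 4 in both SOX17FNV libraries, the 797 without a SOX2 peak were 1.86%. The share was 5.46% (380 of 6964) for a lower -log10 q of 4 to 5, 2.16% (170 of 7883) at 6 to 8 and 0.265% (22 of 8315) at 10 to 15. A single region of 4518 (0.0221%) remained at 15 to 20, and there were 0 of 5076 at 20 or more, which allows up to 0.0726%. The share of strong SOX2 regions fell too, with 1246 of 40212 (3.10%) lacking a SOX17FNV peak, 7.08% at 4 to 5 and 5 of 4164 (0.120%) at 20 or more. The intervals are exact binomial over regions and cover counting error only; regions are not replicates, and no test was made.

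**Figure D2:**
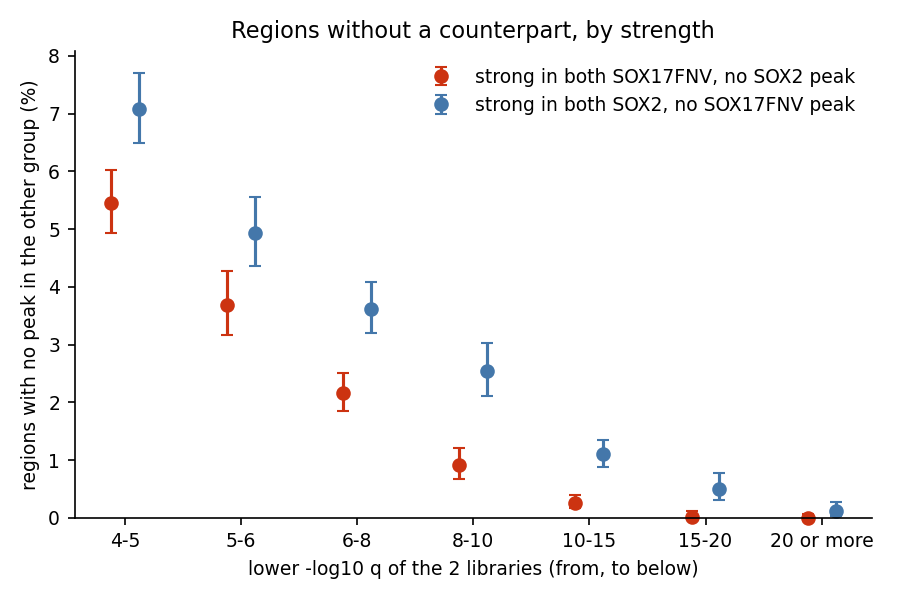
Percent of regions strong in both libraries of a group that have no peak in the other group, by the lower -log10 q of the 2 libraries, with exact binomial 95% intervals (counting error only). The SOX17FNV share falls from 5.46% in the lowest bin to 0 of 5076 regions in the highest.

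None of the 15 strongest regions lay within 1 kb of a gene end. The first, inside Sgcd, which encodes a sarcoglycan of the muscle membrane (chromosome 11, 47495727 to 47496441), had a -log10 q of 18.97 and 17.2 and pileups of 35 and 31 in SOX17FNV replicates 1 and 2. It is the single region above a lower value of 15, and its nearest SOX2 peak was 115914 bp away. The second, inside Ccser1 (chromosome 6, 61282727 to 61283248), had -log10 q values of 20.5 and 14.99 and pileups of 38 and 29. The third lay 20698 bp from Ric3, a chaperone gene of nicotinic acetylcholine receptors (chromosome 7, 109104130 to 109104999), with -log10 q values of 19.4 and 14.1. It had the highest pileups of the 15 strongest, 55 and 40, which is 1.67 times the shared median in each library.

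The other 12 of the strongest 15 had lower -log10 q values from 11.2 to 13.3. Regions lay inside Gtf2i, a transcription factor gene (chromosome 5, 134260095 to 134260513, pileups 35 and 31), Dnm3, a dynamin gene (chromosome 1, 162354833 to 162355210, 27 and 26), and Galnt10, which encodes an enzyme that starts O-glycosylation (chromosome 11, 57725781 to 57726460, 45 and 29). A SOX2 peak lay 385 bp from the Galnt10 region. A further 4 genes lay 11143 to 26549 bp from a region: Cnbd2 (chromosome 2, 156392760 to 156393053, pileups 32 and 29), Gk5, a glycerol kinase family gene (chromosome 9, 96102712 to 96103318, 27 and 28), Sec31a, a gene of the COPII vesicle coat (chromosome 5, 100334754 to 100335100, 41 and 34), and Nub1 (chromosome 5, 24674355 to 24674672, 32 and 25). The remaining 5 had no protein-coding gene within 50 kb. They lay on chromosomes 12 (63483742 to 63484758), 4 (4686920 to 4687252), 17 (9609032 to 9609710), 6 (36306398 to 36306864) and 11 (22587812 to 22588755), and the first was 986575 bp from any such gene. The annotation used holds gene spans without exons, so a region inside a gene was not placed in an exon or an intron.

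Few of the regions were at gene ends. An end of a protein-coding gene lay within 1 kb of 37 of 797 regions (4.64%, exact binomial 95% interval 3.29 to 6.34), against 26.0% of the 52950 regions called in all 4 libraries (34.2% of all regions). Of 16205 shared regions of like strength, with a lower SOX17FNV -log10 q of 4 to below 8, 17.1% (16.6 to 17.7) were near an end. These were still the stronger set. Their median -log10 q was 8.47 and 6.06 in SOX17FNV replicates 1 and 2, against 6.70 and 5.55, and their median pileup 29 and 21, against 23 and 19. The range also leaves out the strength of the 72 strong SOX17FNV-only regions at 8 or more. The strong SOX2-only regions stood at 4.17% (3.13 to 5.44) and the weaker SOX17FNV-only regions at 5.53% (4.80 to 6.33), intervals that overlap that of the strong SOX17FNV-only regions. Counting the listed starts alone, 25 of 776 regions (3.22%) on the chromosomes of the promoter table lay within 1 kb of one. The share was 23.9% for shared regions and 14.8% for shared regions of like strength. These starts include those of genes that are not protein-coding. Some starts on these chromosomes are not listed: a region 11255 bp from Gdap1 was 970061 bp from the nearest listed start. The shares therefore leave out regions at unlisted starts. By lower -log10 q, 16 of 380 regions (4.21%) at 4 to 5, 8 of 175 (4.57%) at 5 to 6, 13 of 170 (7.65%) at 6 to 8 and 0 of 72 at 8 or more were near an end. The last allows up to 4.99%, which holds the overall share. The overall share moved to 7.16% without SOX2 replicate 1 and to 7.98% with the strongest 50000 peaks of each list. Both settings change which regions are counted. The second cuts every list before the rule is applied, so its 2843 regions may hold weaker SOX2 peaks.

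Most of the regions were spread inside and between genes. Inside a gene and away from its ends lay 356 (44.7%, 41.2 to 48.2), outside a gene but within 50 kb 258 (32.4%, 29.1 to 35.7), and farther away 146 (18.3%, 15.7 to 21.2). The share far from genes was 26.1% (23.7 to 28.6) for strong SOX2-only regions, 13.4% for weaker SOX17FNV-only regions, 10.5% for shared regions and 11.7% (11.2 to 12.2) for shared regions of like strength. In the main setting the strong SOX17FNV-only regions thus stood between the strong SOX2-only and the shared regions. The intervals cover counting error only, regions are not replicates, and no test was made. The share far from genes was 13.1% (11.9 to 14.4) among the regions found with the strongest 50000 peaks of each list. That is a different and larger set, whose regions may hold SOX2 peaks below the cut. The median width was 414 bp (170 to 1840), against 577 bp for strong SOX2-only, 373 bp for weaker SOX17FNV-only and 754 bp for shared regions of like strength. Shared regions merge up to 4 lists and the others 2, so these widths are not measured alike. Within a single list, the median peak width of the strong SOX17FNV-only regions was 357 bp in SOX17FNV replicate 1 and 303 bp in replicate 2. Shared regions of like strength had 602 and 470 bp in the same lists, but their median -log10 q and pileup were also higher.

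**Figure D3:**
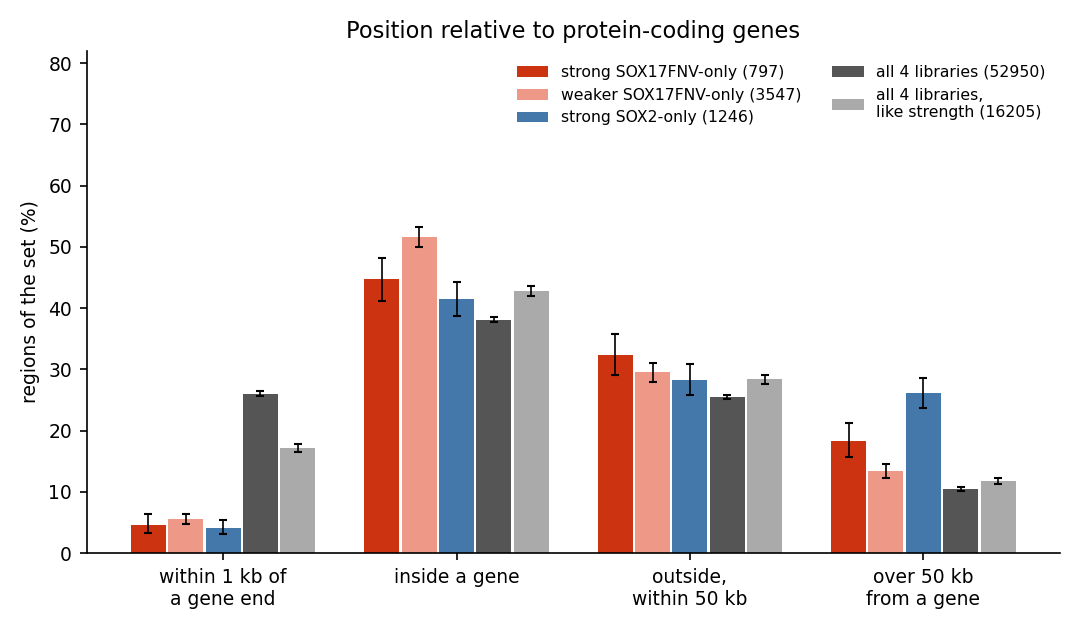
Percent of regions near a gene end, inside a gene, outside within 50 kb of one, and farther away, for the strong SOX17FNV-only regions and the sets beside them, with exact binomial 95% intervals (counting error only). Near an end stand 4.64% of the strong SOX17FNV-only regions and 26.0% of the regions called in all 4 libraries.

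Of the 37 regions near an end, 10 were at a gene's start, 22 at its far end, and 5 at an end whose strand was not listed. The strongest lay at the far end of Ifitm7, a gene of the interferon-induced transmembrane family (chromosome 16, 13981682 to 13982203), with -log10 q values of 9.15 and 7.98 and pileups of 33 and 27. Next came Rhbdl3, a rhomboid family gene (chromosome 11, 80354851 to 80355330), with pileups of 31 and 24, and the far end of Serinc2 (chromosome 4, 130252704 to 130253137), with 32 and 25. The region at the start of Ebi3, shown above (chromosome 17, 55952113 to 55952514, also inside Zfp119b), had higher pileups in both replicates, 41 and 42, with -log10 q values of 7.26 and 9.05.

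Other starts were those of Gm46425 (chromosome 13, 65950414 to 65950653, pileups 24 and 18), Hcrtr2, an orexin receptor gene (chromosome 9, 76324120 to 76324911, 39 and 25), and Zfp993 beside Zfp981 (chromosome 4, 146511978 to 146512205, 19 and 19). A SOX2 peak lay 136 bp from the Hcrtr2 region. The zinc finger pair belongs to a family of near-identical genes, and the treatment of reads that fit several copies is not given in the sources used here. Far ends with a region were those of Prcc (chromosome 3, 87859793 to 87860100, pileups 29 and 27), Rrp15, a ribosomal RNA processing gene (chromosome 1, 186719840 to 186720129, 26 and 23), Ppdpf (chromosome 2, 181188501 to 181189126, 44 and 30) and Pgm2, a phosphoglucomutase gene (chromosome 5, 64127312 to 64127679, 25 and 18). Acad9, a mitochondrial acyl-CoA dehydrogenase family gene (chromosome 3, 36092896 to 36093196, 27 and 23), had a region at an end of unlisted strand. The Cdkn1a region (chromosome 17, 29090846 to 29091128), at a lower -log10 q of 5.23, is named for the sequence above and was chosen after its values were seen. Of the 10 regions assigned to Cdkn1a, 6 were called in all libraries, 1 was strong and 2 were weaker SOX17FNV-only, and 0 were SOX2-only.

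Single genes of several lists held one of the regions. The regions were assigned to 614 of 19814 protein-coding genes (3.10%), and 5 genes of the 13 lists chosen for stem cells, early lineages, SOX factors, feeder cells and housekeeping were among them. In the formative and primed pluripotency list, 1 of 8 genes on the chromosomes used had a region: Lef1, a transcription factor of Wnt signalling (chromosome 3, 131156335 to 131156821), with pileups of 22 and 18. In the endothelial and haematopoietic list, which holds genes of the SOXF programme, 2 of 15 had one, and 2 of 15 also had a strong SOX2-only region. They were Pecam1, an endothelial adhesion molecule (chromosome 11, 106709107 to 106709569, pileups 35 and 41), and Efnb2, the arterial ligand ephrin B2 (chromosome 8, 8612018 to 8612662, 36 and 36). Pecam1 also held 1 strong SOX2-only region, and a SOX2 peak lay 249 bp from its SOX17FNV-only region.

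The 2-cell-like list had 1 gene of 7, Zfp352 (chromosome 4, 90203464 to 90203778, pileups 29 and 19), with the region 15042 bp from the gene. The SOX family had 1 of 16, Sox12, a SOXC gene (chromosome 2, 152392663 to 152393058, 33 and 31), with the region 553 bp beyond the gene's far end. No gene had one in the lists of general pluripotency (0 of 12), naive pluripotency (0 of 10), endoderm (0 of 14), trophectoderm (0 of 12), primitive streak and mesoderm (0 of 12), neuroectoderm (0 of 12), germ line (0 of 10), fibroblast markers (0 of 12) and housekeeping (0 of 10). Strong SOX2-only regions were assigned to 3 of the 10 naive genes, Klf2, Tbx3 and Tfcp2l1, to 0 to 2 genes of each other list, and to 4.25% of all protein-coding genes. Lists of this size hold too few regions to be set against the 3.10% of all genes. All 10 embryonic stem cell marker genes had a called region near an end in every library, as did 7 or 8 of 12 fibroblast markers. The share of all protein-coding genes with such a region was not counted, so these counts cannot be read as to cell type.

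Regions seldom gathered at one gene. Of the 614 genes, 33 had 2 regions and 2 had 3. At Sgcd, a gene over 1 Mb long, the regions beside the strongest one lay at 47631488 to 47632166 (pileups 23 and 18) and 47218034 to 47218963 (16 and 24). The latter was weak in replicate 1, with -log10 q values of 4.09 and 10.5. Of the 15 merged regions of Sgcd, 3 were called in all libraries. At Mtus2, a microtubule-associated protein gene on chromosome 5, they lay at 147975899 to 147976324 (28 and 21), 148104286 to 148104778 (22 and 16) and 148242052 to 148242282 (23 and 17). All 3 were stronger by -log10 q in replicate 1, and Mtus2 held 23 shared regions among 51.

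The widest regions were not the strongest. They were those inside Umad1 (chromosome 6, 8353291 to 8355130, 1840 bp, pileups 33 and 24), Brwd1, a bromodomain gene (chromosome 16, 96048758 to 96050433, 1676 bp, 50 and 39), Col6a5, a collagen VI chain gene (chromosome 9, 105877965 to 105879136, 1172 bp, 34 and 26) and Dennd2a (chromosome 6, 39474007 to 39475174, 1168 bp, 43 and 24), and one 30534 bp from Desi2 (chromosome 1, 178283132 to 178284542, 1411 bp, 25 and 22). Their lower -log10 q values ran from 5.68 at Dennd2a to 9.88 at Umad1.

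Along the chromosomes the regions were mostly single. With under 100 kb between neighbours there were 48 runs that held 99 of the 797 regions, and 3 runs had 3 members. One spanned 155692 bp of chromosome 1, from 57763 bp outside the nearest gene through Tgfb2, a TGF-beta ligand gene, to Rrp15, with pileups of 21 and 20, 17 and 20, and 26 and 23 in replicates 1 and 2. Another lay 26190 to 83542 bp from Tnrc6c, a gene of microRNA silencing, on chromosome 11, with pileups of 17 and 16, 41 and 39, and 34 and 25. The third lay between Pou2f1, which encodes OCT1, and Dusp27 on chromosome 1, with 26 and 20, 27 and 21, and 20 and 16. The next longest were pairs at Serpinh1, a collagen chaperone gene, and Klhl35 on chromosome 7 (99365043 to 99464138), and at Id3, an inhibitor of HLH factors, and E2f2 on chromosome 4 (136104690 to 136200276).

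SOX2 peaks lay at a wide range of distances, as SOX17FNV peaks did from strong SOX2-only regions (a median of 5713 bp). The distance from places in general to a peak was not measured, so these distances are not shown to be unusual. The nearest SOX2 peak was a median of 4260 bp from a strong SOX17FNV-only region (46 to 305341 bp). Of these regions, 51 had one within 500 bp, 113 within 1 kb and 215 none within 10 kb. The shared regions around them were compared next, since the rule did not use their values. The 3192 shared regions within 50 kb had median relative pileups of 1.06 and 1.08 with SOX17FNV, and of 1 in each SOX2 library. The groups did not overlap, and the difference was 0.0720 (exact two-sided permutation p = 0.333, the smallest that 2 libraries against 2 allow). Pileups are whole numbers, here divided by 33 and 24 (SOX17FNV) and 35 and 28 (SOX2), so these medians move in coarse steps. The direction was higher in 2 of 2 SOX17FNV libraries, but part of it is general: the ratio of SOX17FNV to SOX2 relative pileup had a median of 1.05 over these regions and 1.02 over all 52950, and was above 1 in 61.2% and 54.9%. The difference moved to 0.0349 without SOX2 replicate 1, 0.0379 without SOX2 replicate 2, 0.0398 within 10 kb, 0.0326 with means in place of medians (chosen after seeing the data) and 0.0170 around regions with a fold enrichment of at least 4, where the libraries of the groups overlapped (exact permutation p = 0.667).

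Around strong SOX2-only regions the order was the opposite. The 3885 shared regions within 50 kb of them had a median relative pileup of 1 in each SOX17FNV library, and of 1.06 and 1.04 with SOX2, a difference of -0.0464 (exact permutation p = 0.333). Around them the ratio of SOX17FNV to SOX2 relative pileup had a median of 0.988, against 1.02 over all shared regions, and was above 1 in 47.6%. The difference was -0.0634 within 10 kb and 0 within 200 kb, where the ratio had a median of 1.006 and was above 1 in 51.1%; around SOX17FNV-only regions it was 0.0511 within 200 kb. Whether the differences around the 2 sets differ from each other was not tested.

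**Figure D4:**
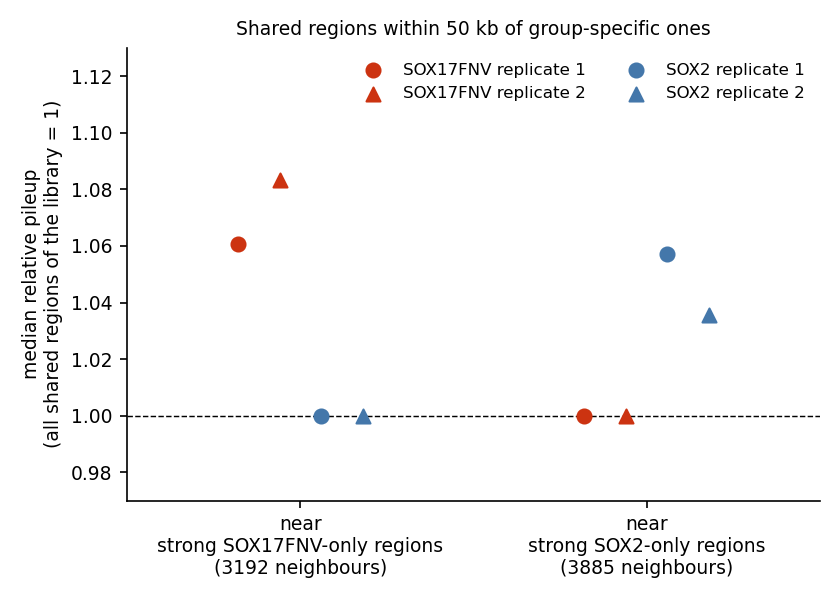
Median relative pileup of the regions called in all 4 libraries within 50 kb of strong SOX17FNV-only and strong SOX2-only regions, with 1 point per library and a line at the median of all shared regions. Near strong SOX17FNV-only regions the SOX17FNV libraries stand at 1.06 and 1.08 and both SOX2 libraries at 1.

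The 18 chromosomes used differed in how many regions they held. The number per 1000 regions called in all libraries ran from 10.6 on chromosome 7 (37 regions) to 20.9 on chromosome 1 (77 regions). Chromosome 17 was the only one of them with more strong SOX17FNV-only than strong SOX2-only regions, 42 and 37, and chromosome 10 held 52 and 53. Across these 18 chromosomes the density had a Spearman rho of 0.154 with the chromosome's ratio of SOX17FNV to SOX2 pileup over shared regions, and that of strong SOX2-only regions a rho of -0.641. All points come from the same 4 libraries, so these are descriptions.

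**Figure D5:**
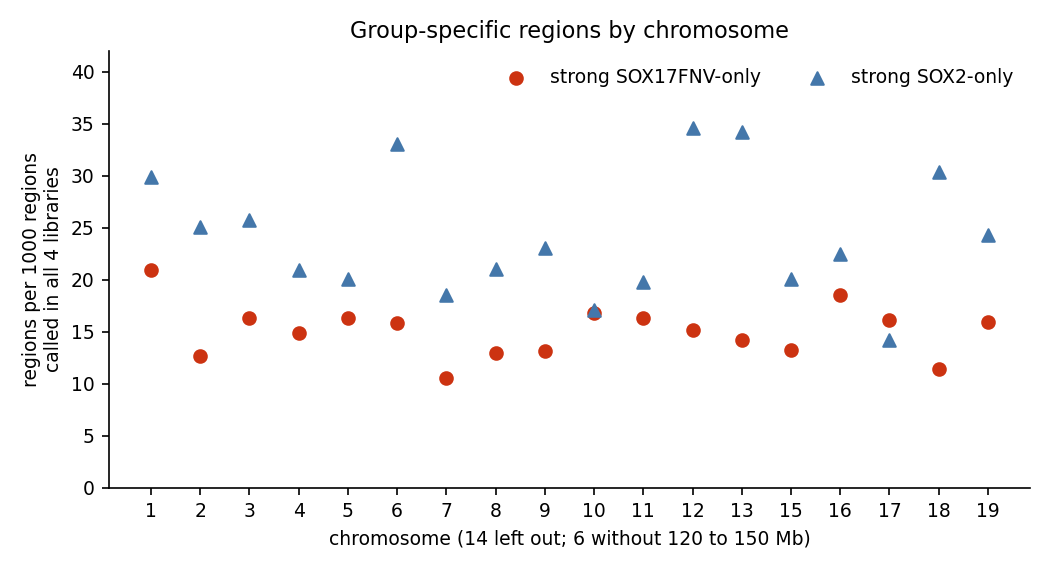
Strong SOX17FNV-only (circles) and strong SOX2-only regions (triangles) per 1000 regions called in all 4 libraries, by chromosome. The SOX17FNV-only densities lie between 10.6 and 20.9, and only on chromosome 17 does the circle stand above the triangle.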

How the data were processed

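ATAC-seq peak lists of 4 libraries were used, 2 per group. Per the submitters' processing notes, Bowtie2, SAMtools and MACS2 were used with mm10; no version, setting or shift of read ends is given in the sources used here. The authors deposited 1 list per library, with a score, a fold enrichment (a ratio over local background), and -log10 p and -log10 q per summit, as the peak caller wrote them. The fold, p and q were used only to rank or filter peaks of the list they came from and to solve its pileups. The files hold no read totals. Peaks numbered 120341 and 92851 (SOX17FNV) and 123214 and 96500 (SOX2), and the lowest background of a list, a stand-in for depth, was a pileup of 3.91, 3.27, 4.17 and 5.02.

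Distinct intervals were pooled and merged where they overlapped by at least 1 bp. The summit pileup was solved from fold and p, and a whole number gave the deposited -log10 p within 0.001 for 100% of summits. Both steps were tested on simulated data. Regions were assigned to the protein-coding gene of the GRCm38.p6 table they overlapped, or else to the nearest within 50 kb. That table gives spans without strand or exons. Gene starts came from the promoter table and were compared for the 776 regions on the chromosomes it covers. The promoter table does not list every gene of those chromosomes, and it also lists genes that are not protein-coding. The planned motif search of the regions themselves needs a genome, so the letters were searched in promoter windows.

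Intervals are exact binomial (Clopper-Pearson, 95%) and cover counting error only. Library medians were compared by an exact permutation test. The members and lists were chosen with earlier results of these data known. Named regions are the 15 strongest by the lower -log10 q, the 12 strongest within 1 kb of a gene end, all assigned to a list gene, genes with 3 or more, the 3 just inside and just outside the threshold, the 5 widest and the 5 longest runs. Same-numbered libraries were compared for pairing. Alternatives changed thresholds, merging, list length, chromosomes, windows and libraries. Python 3.11.15, numpy 2.4.6, pandas 2.3.3, scipy 1.17.1 and matplotlib 3.10.9 were used.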

Additional observations from a re-analysis of the deposited data

How the results depend on the processing

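The number of strong SOX17FNV-only regions depends on where the lines are drawn. It was 1364 at a -log10 q of at least 3, 417 at 5, 23 at 10, 2843 with the strongest 50000 peaks of each list and 228 with a fold enrichment of at least 4, against 2202, 745, 111, 3348 and 299 strong SOX2-only regions. SOX2-only regions outnumbered SOX17FNV-only regions in each of these. With the strongest 50000 peaks, a region without a peak of the other group may hold a weaker one in the full list. Leaving out 1 library gave 1372 to 4960 SOX17FNV-only and 1674 to 7177 SOX2-only regions. The order of the 2 counts turned without SOX17FNV replicate 2 (4960 and 1674) and without SOX2 replicate 1 (3298 and 2156). It held with either of the other libraries left out. The rule is then unequal between the groups, so the order in these settings is not a like comparison.

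At a -log10 q of at least 10, which left 23 regions, the share near a gene end was 0%. Its interval reached 14.8% and so holds the 4.64% of the main setting. The share was 7.98% with the strongest 50000 peaks, 3.07% by fold enrichment, 8.66% within 2 kb and 2.38% within 500 bp. By listed starts it was 3.22% (chosen after seeing the data), and with 1 library left out 4.52% to 7.16%. The share over 50 kb from a gene was 26.1% (10.2 to 48.4), 13.1% and 25.4% in the first 3 of these settings. With 1 library left out it was 14.8% to 17.8%, and the share inside a gene 44.9% to 48.8%. The median width was 529, 554 and 460 bp, and 284 to 484.5 bp. Regions at list genes numbered 9 at a -log10 q of at least 3, 0 at 10, 31 with the strongest 50000 peaks and 2 by fold enrichment, and 10 to 49 with 1 library left out.

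The difference of shared neighbours kept its sign in every setting run, but the libraries of the groups overlapped with fold enrichment of at least 4 (exact permutation p = 0.667). Leaving out 1 library gave 0.0349 to 0.0686. The replicate block gave 0.0720 from pairs of 0.0606 and 0.0833, and no paired test was made. The labels give no shared batch for same-numbered libraries. The replicate differences of the 2 groups had a correlation of 0.234 over 52950 regions, and replicate 1 had the longer list in both groups. Of 57 named regions, 57 stayed with each library left out, as the rule requires, 15 at a -log10 q of at least 10 and 26 by fold enrichment. The motif search around summits was not run. Depth limits what can be called absent: a SOX2 library lists nothing under a pileup of 12 or 13, its weakest peak anywhere. Where the local background is higher, a higher pileup is needed. In SOX17FNV replicate 1 the Sox12 region had a pileup of 33 over a background of 12.5, and its -log10 q was 4.40. A place without a SOX2 peak may therefore hold more fragments than 12 or 13.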

Other observations

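The parts left out by the rule differed from the chromosomes used. On chromosome 14 the same rule gave 174 strong SOX17FNV-only and 35 strong SOX2-only regions, or 69.0 and 13.9 per 1000 of its 2520 shared regions, and the median ratio of SOX17FNV to SOX2 relative pileup over those shared regions was 1.297. On chromosome 6 from 120 to 150 Mb it gave 5 and 29 with a ratio of 0.858, and on chromosome X 16 and 86 with a ratio of 0.934. The ratio ran from 0.991 to 1.06 over the 18 chromosomes used. On chromosome 8, with the highest ratio of those used, there were 48 strong SOX17FNV-only and 78 strong SOX2-only regions.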
